A study of Arabidopsis thaliana with 4 samples.

Results

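Auxin moves between plant cells through carriers in the plasma membrane, and 7 Arabidopsis genes of 2 carrier families are described here: AUX1, LAX1, LAX2 and LAX3 of the AUX1/LAX influx family, and ABCB1, ABCB4 and ABCB19 of the ABCB family. They were chosen as named members of these families with earlier results of these data known, and other ABCB genes are not among them. A region of the deposited KAN1 ChIP data was assigned to a gene when the deposited annotation named that gene as overlapping it or as its left-hand or right-hand neighbour. By this rule 39 of the 22109 regions in the table named 1 of the 7 genes, out of 22982 genes named in all. In some of the 39, both ChIP libraries held fewer reads than the controls, so a region is not by itself a site of KAN1 binding.

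The study mapped the binding of KANADI1 (KAN1), a GARP family transcription factor that promotes abaxial (lower side) identity in leaves, by chromatin immunoprecipitation and sequencing (ChIP-Seq). The 2 ChIP libraries came from 35S:FLAG-GR-KAN1 plants of the Columbia-0 ecotype, grown for 10 days in liquid culture, treated with dexamethasone (DEX) for 45 min, and precipitated with anti-FLAG magnetic beads. The 2 control libraries carry the same ecotype, culture and DEX treatment in their labels, with "input" in place of an antibody, whereas the study's methods describe 1 control library from Col-0 plants without the transgene. The fusion with the glucocorticoid receptor (GR) enters the nucleus when DEX is given, and the 35S promoter is active in most tissues, so KAN1 was also present in cells that do not normally express it. No label states whether the replicates were separate cultures. An exact permutation test of 2 against 2 libraries cannot reach 0.05 and this comparison had already served to call the regions, so no test was made and values are given as descriptions.

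Auxin enters cells partly by diffusion of its protonated form and partly through AUX1/LAX permeases, which couple uptake to protons. Inside the cell it is charged and leaves through PIN carriers and through ABCB proteins, which are ATP-driven pumps. AUX1 is known for root gravitropism, LAX2 for vascular patterning and LAX3 for lateral root emergence, and ABCB1 and ABCB19 act together in auxin transport along stems. ABCB4 carries auxin in the root epidermis.

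Every one of the 7 genes had at least 1 region in which the ChIP libraries held on average at least 3 times as many reads as the controls, against 25.4% of all genes named in the table. The strongest regions lay 10052 bp upstream of AUX1, with a mean ratio of 5.73 ± 2.22, and 1217 bp upstream of ABCB4, with 5.55 ± 2.51 (SD, n = 2 ChIP replicates). Their central 300 bases are shown, since both carry the KAN1 motif close to the midpoint of the region. The motif, written VGAATAW in the study, was searched on both strands as 6 words: the word AGAATAA and the word AGAATAT, the same beginning with C, which are the word CGAATAA and the word CGAATAT, and the same beginning with G, which are the word GGAATAA and the word GGAATAT. Sequences are from the plus strand of the TAIR10.1 reference, whose chromosome coordinates equal those of TAIR10. Capitals mark the motif, which here reads on the minus strand and is therefore printed as its reverse complement.
AUX1 upstream region, chr2:15962791-15963090, plus strand: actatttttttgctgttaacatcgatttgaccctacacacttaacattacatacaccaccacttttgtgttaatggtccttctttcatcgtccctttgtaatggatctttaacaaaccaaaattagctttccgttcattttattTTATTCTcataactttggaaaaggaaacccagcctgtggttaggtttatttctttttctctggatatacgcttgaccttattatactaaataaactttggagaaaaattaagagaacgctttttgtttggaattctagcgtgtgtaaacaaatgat
ABCB4 upstream region, chr2:19316309-19316608, plus strand: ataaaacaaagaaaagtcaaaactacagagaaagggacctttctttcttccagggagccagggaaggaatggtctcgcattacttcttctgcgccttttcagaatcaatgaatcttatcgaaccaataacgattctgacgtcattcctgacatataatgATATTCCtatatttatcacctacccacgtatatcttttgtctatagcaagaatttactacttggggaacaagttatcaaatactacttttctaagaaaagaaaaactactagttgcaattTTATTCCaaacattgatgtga

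The other 7 regions with a motif and a mean ratio of at least 3 are shown by the 29 bases around the site nearest the midpoint, read on the strand of the site with the motif in capitals. They show how much the flanks of the motif differ between the genes.
LAX1 inside, chr5:98676-98704, minus strand: cattaacccatAGAATATttgaagcaata
LAX1 inside, chr5:101158-101186, minus strand: aatcatcgacgAGAATATatgttatagac
LAX2 inside, chr2:9035478-9035506, plus strand: gtaccaatgttGGAATAAtaaaaataggt
ABCB1 upstream, chr2:15494037-15494065, minus strand: gctaattttgaAGAATATtttgttctacc
ABCB19 upstream, chr3:10881005-10881033, minus strand: gacaaatcaaaCGAATATaatatcaagag
ABCB19 downstream, chr3:10868817-10868845, plus strand: atccaacagatAGAATAAgattaaagagc
ABCB19 downstream, chr3:10861384-10861412, minus strand: agagacgaatcCGAATAAgataactaaaa

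The deposited reads are estimated counts per region and library, not scaled between libraries. For each ChIP replicate the ratio of its reads to the summed reads of both controls was taken. Over all regions the ChIP libraries held 2084091 and 1037288 reads and the controls 663580 and 13462. Control 2 was empty in 24 of the 39 regions and held at most 4 reads in any of them, so the denominator was almost entirely control 1. ChIP replicate 1 held a median of 1.98 times the reads of replicate 2 in the 39 regions and 2.03 times in all regions, and its ratio was the higher one in 38 of the 39. Both ratios of a region share the same denominator. The SD and the lower ratios of replicate 2 therefore include this difference in reads between the libraries, and the SD is not a measure of variation in binding alone.

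Of the 39 regions, 11 (28.2%) reached a mean ratio of 3, against 18.8% of all regions. The median of the mean ratio was 1.76 over the 39 regions and 1.62 over all regions, and the 39 regions ranged between 0.50 and 5.73. A ratio of at least 3 in both replicates was found in 3 of the 39 regions (7.69%), against 7.37% of all regions, which is nearly the same share. These 3 were the upstream region of AUX1, the upstream region of ABCB4 and the region 1219 bp downstream of ABCB19. The false discovery rate deposited by the authors was at most 0.05 in 34 of the 39 regions in replicate 1, against 75.9% of all regions. In replicate 2 it was so in 1 of the 39, against 5.93% of all regions. That 1 region was the upstream region of AUX1. The ABCB4 region, with 219 reads in ChIP replicate 2 and 4 in control 2, had a rate of 0.074 in replicate 2. The part of the nearly empty control 2 in these rates was not tested. The study printed lower replicate 2 rates for the upstream region of AUX1 and for the ABCB19 regions 8677 bp downstream and 3456 bp upstream. The printed rate was under 0.05 for the AUX1 region and the downstream ABCB19 region, and above it for the upstream ABCB19 region. Some rates printed for other genes exceed 1, so printed and deposited rates cannot be compared directly. Just above the limit of 3 lay mean ratios of 3.05, 3.19 and 3.24, and just under it 2.68, 2.57 and 2.34. When the ChIP libraries and the control were scaled to the same total over the called regions, no region of the 7 genes reached 3. Both ChIP totals exceed the control total, so this scaling lowers the ratio of every region in the table. The share of all regions that still reached 3 was not computed.

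**Figure D1:**
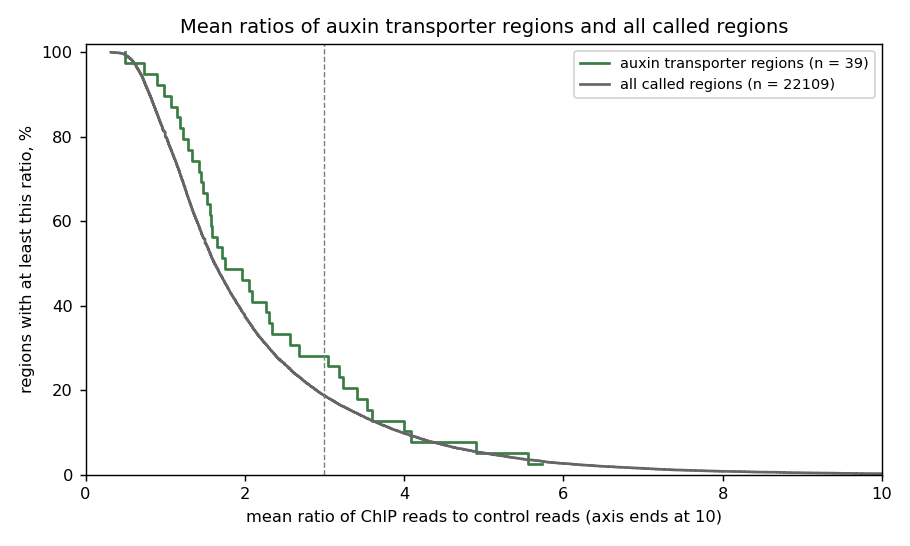
Share of regions (y axis, percent) that reached each mean ratio of ChIP reads to control reads (x axis) for the 39 auxin transporter regions (green) and all 22109 regions (grey), with the dashed line at 3. The green line lies above the grey one at a ratio of 3, at 28.2% against 18.8%, and ends at 5.73.

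Genes named by many regions have more chances to reach the limit, and the 7 genes differed widely in this number. ABCB19 was named by 12 regions, AUX1 by 9, LAX1 and ABCB1 by 6 each, LAX3 by 3, LAX2 by 2 and ABCB4 by 1. The median over all named genes was 2. Among the genes with the same number of regions, at least 1 region of ratio 3 was found in 93.3% for the number of ABCB19, 93.4% for AUX1, 78.5% for LAX1 and ABCB1, 38.2% for LAX3, 22.5% for LAX2 and 8.59% for ABCB4. For AUX1, LAX1, ABCB1 and ABCB19, most genes with as many regions thus also reached 3, while for ABCB4, LAX2 and LAX3 most did not. A highest ratio at least as high as that of AUX1 was found in 5.44% of all named genes. This share was 6.04% for ABCB4, 8.96% for ABCB19, 13.9% for LAX2, 14.8% for LAX1, 19% for LAX3 and 22.4% for ABCB1. The counting intervals of neighbours in this order overlapped in both replicates, so the reads do not resolve their order, while those of AUX1 and ABCB1, at its ends, did not overlap in replicate 2.

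**Figure D2:**
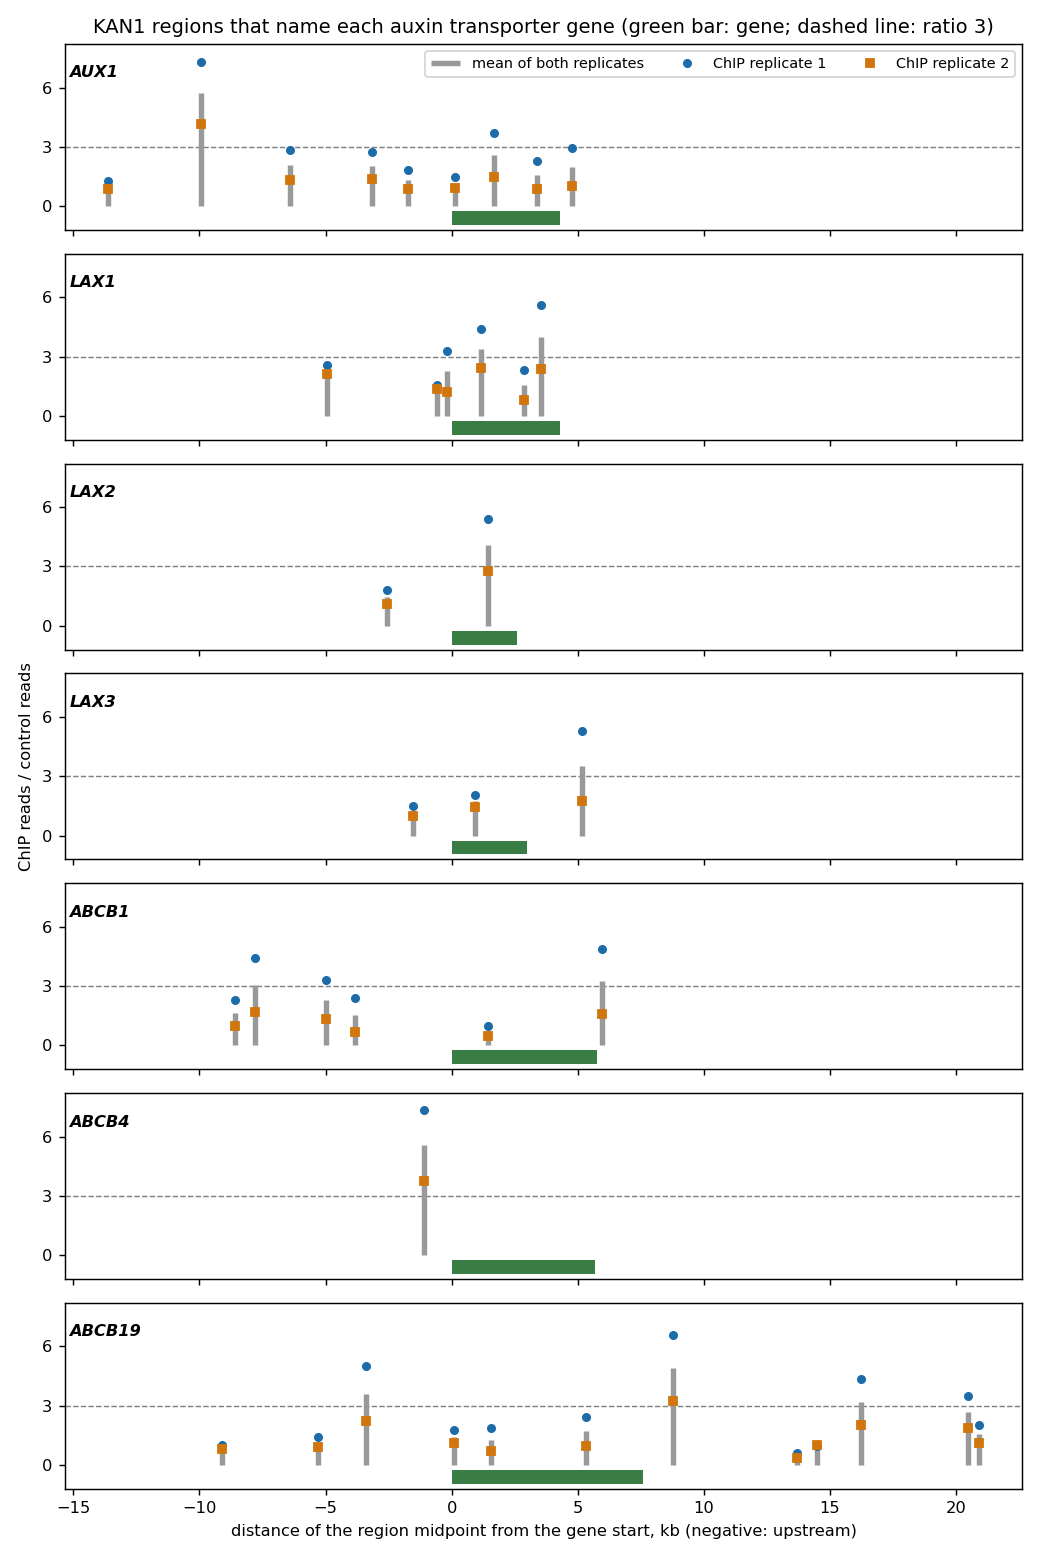
Ratio of ChIP reads to control reads (y axis) of every region naming each of the 7 genes, by the distance of its midpoint from the start of the gene in kb (x axis, negative upstream). Bars show the mean of both ChIP replicates, circles replicate 1, squares replicate 2, the green bar the gene and the dashed line a ratio of 3. The highest bar of AUX1 (5.73) stands far upstream of the gene, the high bars of LAX1 (4.0 and 3.41) and LAX2 (4.09) inside it, and those of the ABCB genes outside it.

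The 4 influx carrier genes were named by 20 regions, of which 5 reached 3. AUX1 (AT2G38120, chr2:15972876-15977180, plus strand) encodes the founding influx carrier. Its strongest region, chr2:15962596-15963286, held 533 and 304 reads in the ChIP libraries, against 73 and 0 in the controls. The ratios were 7.30 and 4.16, with exact 95% counting intervals of 5.71 to 9.46 and 3.22 to 5.45. Both ChIP libraries were thus above 3 also at their lower bounds, and no other region of the 7 genes shared this in replicate 2. Only 3.20% of all regions had as high a mean ratio. The region was intergenic and lay upstream of a second gene as well, GPAT6, whose product makes precursors of cutin, and GPAT6 was nearer at 7446 bp. Among all pairs of a region of ratio 3 and a gene named for it, 0.948% were as far apart as this region and AUX1.

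The other 8 regions of AUX1 stayed under 3. The highest of them, in an intron, had a mean ratio of 2.57 ± 1.57 (SD, n = 2), with 136 and 54 ChIP reads against 37 and 0 control reads. The region over the start of the gene had 80 and 51 ChIP reads against 54 and 1 control reads, a mean ratio of 1.19 ± 0.37. The intervals of its ratios, 1.02 to 2.09 in replicate 1 and 0.62 to 1.38 in replicate 2, both lay under 3.

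LAX1 (AT5G01240, chr5:97536-101835, plus strand) has been linked to leaf positioning at the shoot apex together with AUX1 and LAX2. It had 2 regions of ratio 3, and both lay inside the gene. The region chr5:100937-101228, centred in an intron, held 124 and 52 ChIP reads against 20 and 2 control reads, a mean ratio of 4.0 ± 2.31. The region chr5:98502-98883, centred in a coding exon, held 162 and 90 ChIP reads against 37 and 0 control reads, a mean ratio of 3.41 ± 1.38. In both, replicate 1 lay above 3 and replicate 2, at 2.36 and 2.43, under it. The other 4 regions of LAX1 had mean ratios between 1.47 and 2.34.

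LAX2 (AT2G21050, chr2:9034056-9036636, plus strand), the vascular carrier, also had its strong region within the gene. The region chr2:9035298-9035717, centred in a coding exon, held 184 and 94 ChIP reads against 33 and 1 control reads, a mean ratio of 4.09 ± 1.87. The ratio was 2.76 in replicate 2, with an interval of 1.85 to 4.22 that includes 3. The second region, 2616 bp upstream, had a mean ratio of 1.45.

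LAX3 (AT1G77690, chr1:29200417-29203418, minus strand) had its strongest region outside the gene and with the fewest reads of the 11. The region chr1:29198107-29198354 held 69 and 23 ChIP reads against 13 and 0 control reads, a mean ratio of 3.54 ± 2.50. The intervals, 2.91 to 10.5 in replicate 1 and 0.86 to 3.80 in replicate 2, both include 3. It was 2710 bp downstream of LAX3 in the deposited annotation, 2186 bp in the gene models of the reference, and AT1G77682 was nearer at 1159 bp. A pseudocount of 10 reads on both sides of the ratio brought the mean to 2.43. The other regions of LAX3 had mean ratios of 1.76 inside the gene and 1.23 upstream.

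The 3 ABCB genes were named by 19 regions, of which 6 reached 3, and all 6 lay outside the genes in the deposited annotation. ABCB4 (AT2G47000, chr2:19309643-19315343, minus strand) was named by a single region, chr2:19316235-19316683. It held 425 and 219 ChIP reads against 54 and 4 control reads. The ratios were 7.33 and 3.78, with intervals of 5.56 to 9.82 and 2.82 to 5.13. Both replicates were above 3, and 3.58% of all regions had as high a mean ratio. The region lay between divergently placed genes, with AT2G47010 at 667 bp on the other side, and its midpoint fell in an exon of the long non-coding RNA gene AT2G09780.

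ABCB19 (AT3G28860, chr3:10870005-10877578, minus strand) had 3 regions of ratio 3, the most of the 7 genes. The region chr3:10868666-10868972, 1219 bp downstream, held 171 and 84 ChIP reads against 26 and 0 control reads, a mean ratio of 4.90 ± 2.37. Its ratio in replicate 2 was 3.23, with an interval of 2.06 to 5.23, and the other gene named for it, PRE5, was 12194 bp away. PRE5 encodes a small helix-loop-helix protein of growth control. The region chr3:10880790-10881136, 3456 bp upstream, held 144.5 and 64 ChIP reads against 29 and 0 control reads, a mean ratio of 3.59 ± 1.96, and lay in the pseudogene AT3G28865. The region chr3:10861177-10861545, 8677 bp downstream, held 188 and 86 ChIP reads against 43 and 0 control reads, a mean ratio of 3.19 ± 1.68, and PRE5 was nearer at 4736 bp. ABCB19 also had the lowest region of the 39, at 0.50, and the 3 regions within the gene had mean ratios of 1.29 to 1.71.

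ABCB1 (AT2G36910, chr2:15501726-15507501, plus strand) acts with ABCB19, and its strongest region was the weakest among the highest regions of the 7 genes. The region chr2:15507472-15507916, 373 bp downstream, held 215 and 70 ChIP reads against 44 and 0 control reads, a mean ratio of 3.24 ± 2.33. In the reference gene models this region reaches into the end of ABCB1, and AT2G36916 was next to it at 589 bp. The region chr2:15493757-15494119, 8076 bp upstream, held 186 and 70 ChIP reads against 41 and 1 control reads, a mean ratio of 3.05 ± 1.95. MEMB11, which encodes a SNARE protein of vesicle transport, was nearer to it at 1115 bp. In both regions replicate 1 was above 3 and the whole interval of replicate 2 under it, at 1.08 to 2.38 for the downstream region and 1.12 to 2.50 for the upstream one. With 10 reads added, the highest mean ratio of ABCB1 was 2.82.

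**Figure D3:**
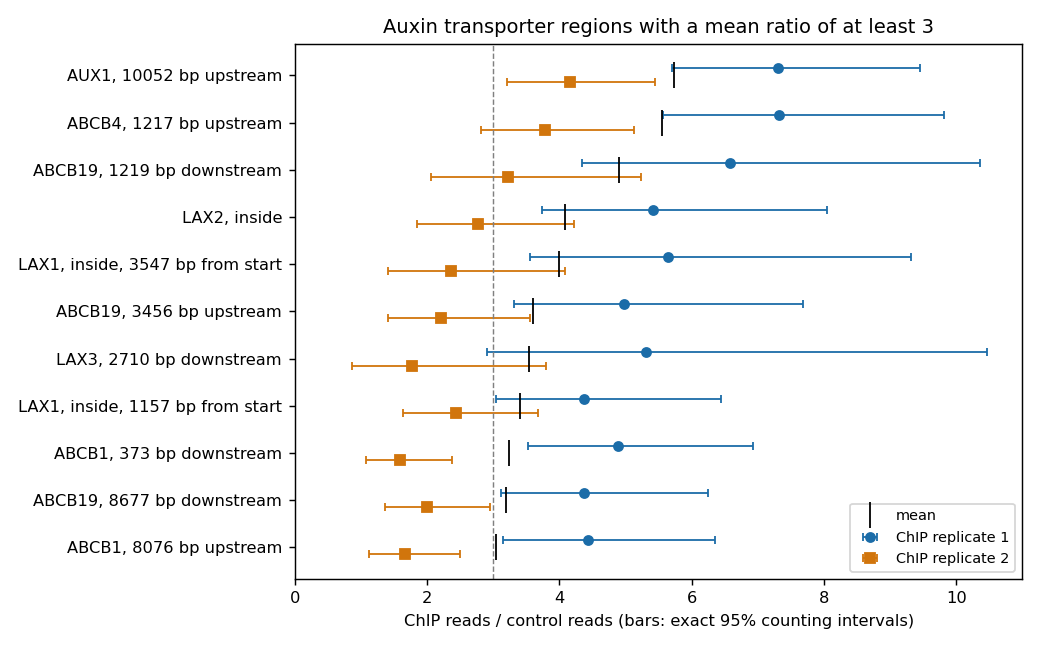
Ratio of ChIP reads to control reads (x axis) in the 11 regions with a mean ratio of at least 3, by gene and position (y axis). Circles show ChIP replicate 1 and squares ChIP replicate 2 with exact 95% counting intervals, black ticks their mean, and the dashed line a ratio of 3. Replicate 1 exceeded 3 in all 11 regions and replicate 2 in 3 of them, with the lower bound above 3 in 10 regions and 1 region.

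In 6 of the 11 regions another named gene was nearer than the auxin transporter gene, as given above for AUX1, LAX3, ABCB1, ABCB4 and ABCB19. Of the 39 regions, 18 lay upstream, 12 inside and 9 downstream of the gene. The share inside the gene was 30.8%, against 11.7% of all pairs of region and named gene. Regions inside the gene or within 3 kb made up 56.4% of the 39 (22 regions), against 77.8% of all pairs. Of the 11 regions of ratio 3, 7 (63.6%) lay that close, against 77.2% of all pairs of ratio 3. Inside the gene lay 3 of the 11, against 5.64% of all pairs of ratio 3, and all 3 belonged to LAX1 and LAX2. The part of gene length in the inside shares was not tested. A region of ratio 3 within 3 kb was found for every gene except AUX1.

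The motif was present in 24 of the 39 regions (61.5%), against 47.7% of all regions on the chromosomes. Of the 11 regions of ratio 3, 9 (81.8%) held it, against 69.8% of all 4166 such regions, and of the 28 under 3, 15 (53.6%) held it, against 42.6% of all. The study, with the MEME-ChIP tool, reports the motif in a smaller share of its regions with at least 3 times enrichment. The shares given here hold for the word search alone. Longer regions hold the motif more often, and among all regions of like size, within 10% of the length, it was found in 48.6% for the LAX3 region, 69.0% for the ABCB4 region and 76.0% for the AUX1 region. The median size was 369 bp for the 11 regions, 250.5 bp for the 28 others and 250 bp for all regions.

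In the 9 regions the nearest motif lay at a median of 16 bp from the midpoint, against 44 bp in all regions of ratio 3 that held one. In AUX1 it lay 3 bp from the midpoint, with a second site 222 bp away, and in ABCB4 12 bp, with a second site 132 bp away. The exon region of LAX1 held 4 sites, the most of the 11, the nearest at 3 bp. The nearest site lay at 12 bp in the stronger downstream region of ABCB19 and at 16 bp in LAX2, where both sites fell in an intron. The farthest were 113 bp in the upstream region of ABCB1 and 89 bp in the intron region of LAX1. In the downstream regions of LAX3 and ABCB1 none of the 6 words occurred. Both of these had ratios under 2 in replicate 2, at 1.77 and 1.59, as did the upstream region of ABCB1, at 1.67, which held a motif.

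**Figure D4:**
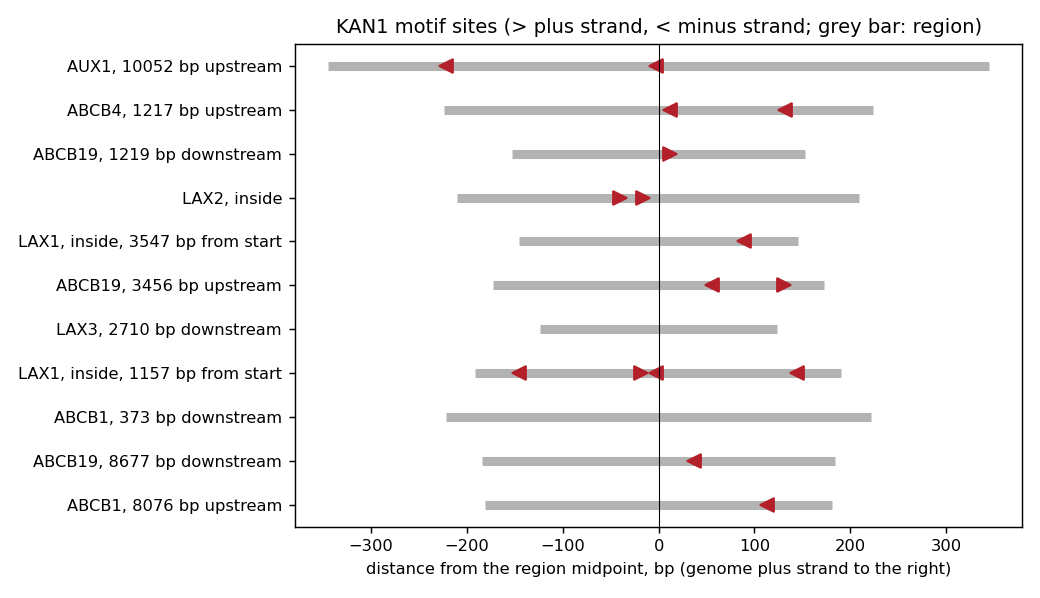
Positions of the motif (red triangles, pointing right on the plus strand and left on the minus strand) in the 11 regions with a mean ratio of at least 3, as distance from the region midpoint in bp (x axis), with each region drawn to length in grey. The AUX1, ABCB4, ABCB19 downstream, LAX2 and LAX1 exon regions have a site within 16 bp of the midpoint, and the downstream regions of LAX3 and ABCB1 have none.

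Of 32 other genes with a known or family-level link to auxin transport, 29 were named by a region and 10 had a region with a mean ratio of at least 3. Among all genes named in the table, 25.4% had such a region. PILS1 and PILS4, of the PIN-LIKES family of the endoplasmic reticulum, and TWD1, an immunophilin-like partner of ABCB1 and ABCB19, were named by none. The 5 highest were NPF6.3, a nitrate transporter that also carries auxin, at 6.50, ABCB15 at 5.71, WAG2, a kinase that acts on PIN proteins, at 5.70, PILS3 at 5.27 and PIN3, an efflux carrier of tropic growth, at 4.83. AUX1, ABCB4 and ABCB19 lay within this range. Since the 7 genes were chosen with earlier results known, the counts of the lists are not an independent comparison. A region of ratio 3 was found for all 7 AUX1/LAX and ABCB genes described here, for 2 of 7 PIN genes, 2 of 7 other ABCB genes, 1 of 7 PILS genes and 5 of 11 genes of trafficking, kinases and other carriers. The median of the highest ratio per gene was 4.09 for the 7 genes, 2.50 for PIN genes, 2.06 for the other ABCB genes, 2.11 for PILS genes and 2.98 for the last group. The number of regions per gene also differed, with 39 regions for the 7 genes and 22 for the 7 PIN genes, and its part in these counts was not tested.

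**Figure D5:**
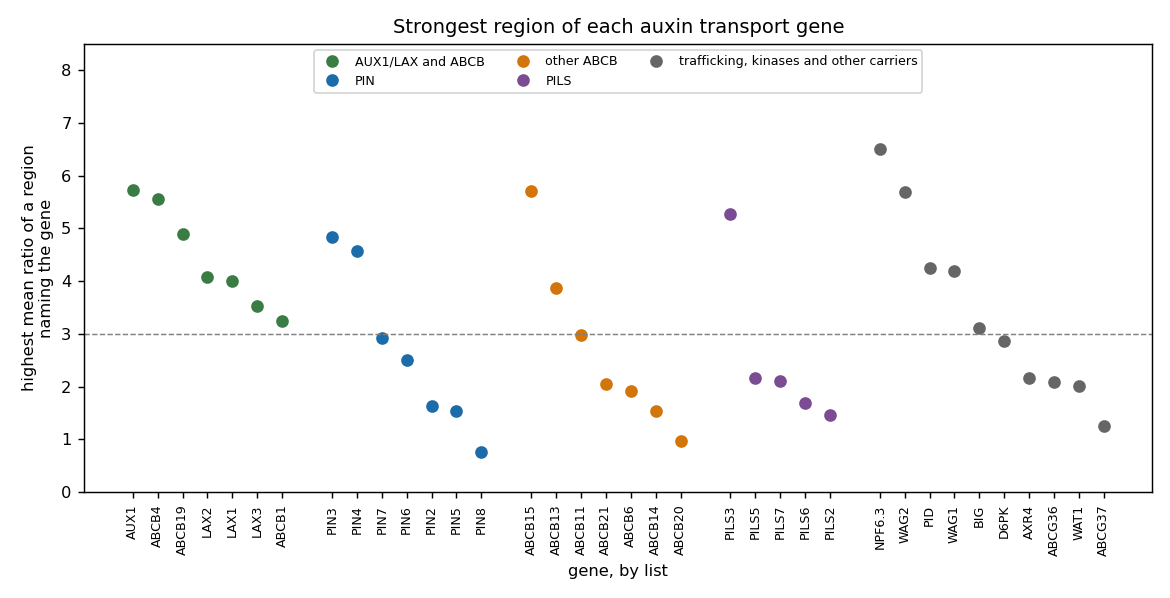
Highest mean ratio of ChIP reads to control reads among the regions naming each gene (y axis), by gene and list (x axis), with the dashed line at 3. Each point is 1 gene with at least 1 region. The 7 AUX1/LAX and ABCB genes (green) lie between 3.24 and 5.73, all above the line, and the PIN genes between 0.75 and 4.83.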

How the data were processed

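The authors filtered the reads for quality, mapped them to TAIR10, reduced duplicate reads and called regions enriched over the control. The study reports fewer enriched positions than the 22109 regions used here, and not all of these were enriched. The caller's version is not given in the sources used here. They deposited estimated counts of reads per region and library, unscaled, for each replicate a false discovery rate, which is a p-value adjusted over regions, and region sizes and other distances in bp from the region centre to TAIR10 genes.

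The 7 genes, the lists and the limit of 3 were chosen with earlier results of these data known. Groups came from the sample labels. Ratios were ChIP reads over the summed control reads, with mean and SD over 2 ChIP replicates not scaled to each other. The exact Clopper-Pearson 95% intervals cover counting error only. The reads cover called regions alone, so library depth is unknown, and the median region had 59 and 30 ChIP reads against 27 and 0 control reads. No count test was run, because the same comparison called the regions. All 7 genes and their regions were named, with the nearest other gene of each region of ratio 3, and of the other transport genes the 5 highest and those without a region. A further gene of that list is not reported here.

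Sequences and gene models came from TAIR10.1 (RefSeq), where the first 20 bases of 347 of 347 transcripts matched at TAIR10 coordinates. The reference and deposited distances differed by at most 524 bp. Python 3.11.15, numpy 2.4.6, scipy 1.17.1, pandas 2.3.3 and matplotlib 3.10.9 were used. The motif search and the counting intervals were tested on simulated data, and the other steps were not. Alternatives covered the control, a pseudocount, the replicates, scaling, the limit, distance and motif. The other assays of the study were not analysed here.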

Additional observations from a re-analysis of the deposited data

How the results depend on the processing

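The counts of 11 regions, 7 genes and 10 other auxin transport genes depended on the limit, the replicate and the scaling. Of these alternatives, only a ratio of 3 in both replicates has its share of all regions given above. For the others, whether the 7 genes moved differently from the whole set of regions was not tested. In the same order, ChIP replicate 2 alone gave 3, 3 and 6, ChIP replicate 1 alone gave 15, 7 and 14, and control 1 alone gave 11, 7 and 11. A ratio of 3 in both replicates left 3, 3 and 6. Scaling to the same total, which lowers every ratio in the table, left 0, 0 and 0. The mean of both controls as denominator, which is the summed control divided by their number, gave 26 regions, 7 genes and 25 other genes. With a pseudocount of 10 reads, 5 regions and 5 genes reached 3, and LAX3 and ABCB1 did not. A limit of 4 gave 5 regions, and the distance limit of 3 kb gave 7. With a replicate block, each ChIP library over the control of the same number, 15 regions reached 3, all 15 that held control 2 reads. Control 2 held at most 4 reads in these, so the ratio of ChIP replicate 2 was large whatever the ratio to control 1. This setting therefore says nothing on enrichment. The ratio is undefined in the other 24. The numbers alone link these libraries. The shorter word GAATA was found in 76.9% of the 39 regions. The highest region of each of the 7 genes was the same with control 1 alone, the mean of the controls, the pseudocount, ChIP replicate 1 alone and scaling, and for 5 of 7 genes with ChIP replicate 2 alone. The mean of the controls cannot change this order, since it divides every denominator by the same number. Control 1 alone removes at most 4 reads per region, and scaling multiplies each replicate by a constant, so these settings could change it little. The highest region of AUX1 has no value under the replicate block and lies outside the limit of 3 kb. The highest ratio per gene ranged between 1.67 and 4.16 with ChIP replicate 2 alone and between 4.89 and 7.33 with ChIP replicate 1 alone.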
